A study of Mus musculus with 9 samples.

Results

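Type 2 conventional dendritic cells (cDC2s) with a conditional knockout of A20 were compared with wild-type cDC2s exposed to interferon alpha (IFNa). The comparison took 6 of the 9 libraries in the series, 3 titled A20iKO (written A20 KO here) and 3 titled WT+IFNa, and covered all genes. The other 3 libraries, from untreated wild-type (WT) cells, are shown beside them and shared the estimate of the spread. The groups were read from the titles. The cells were taken by FACS out of mouse marrow cultures kept for 9 days in 100 ng/ml Flt3L, the growth factor that drives dendritic cell development. The IFNa cultures received it on day 5. A20 KO cells carried floxed A20 alleles and a Cre driven by CD11c, which is switched on during dendritic cell development, so precursors in these cultures may still have had A20. Neither the share of cells that lost the gene nor the exons removed are given in the sources used here. A protocol field names the IFNa treatment for every sample, A20 KO included; the titles and a treatment entry give it to the IFNa group alone, and the A20 KO cultures are taken as untreated on that basis. The study drew on 3 mice per group, and whether each library is 1 mouse is not given, so n counts libraries and p-values measure the spread between them.

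A20, encoded by Tnfaip3, removes and edits ubiquitin chains on signalling proteins and so restrains NF-kB, the factor that drives inflammatory and survival genes after signals from Toll-like and TNF receptors. Type I interferons act by another route: their receptor activates a complex that holds STAT2 and IRF9, which binds the interferon-stimulated response element (ISRE) and switches on antiviral genes. cDC2s present antigen mainly to CD4 T cells and depend on IRF4, KLF4 and Notch2, while the sister subset cDC1 depends on IRF8, BATF3 and Id2 and presents antigen from dead cells to CD8 T cells.

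Total counts were 7041519 to 10246810 in the IFNa libraries and 7187359 to 9518822 in the A20 KO libraries. Of 40879 genes listed, 13251 held enough counts to be tested. Levels are normalised read counts scaled to a common library size (CPM), given as libraries 1, 2 and 3 of a group or as mean ± SD (n = 3). Stromal transcripts were uneven within groups: Col1a1, a collagen gene of fibroblasts, stood at 380, 1475 and 3105 CPM in the IFNa libraries and 2720, 469 and 286 in A20 KO. None of the 27 stromal genes tested passed in either direction with edgeR, DESeq2 or limma-voom, and 0 had an unadjusted p under 0.05. The summed level of that list ran from 806 to 6243 CPM in the IFNa group and from 636 to 5844 in A20 KO. Haemoglobin transcripts were raised in A20 KO library 1 alone (Hbb-bs 262 CPM, against 38.5 to 61.8 in the other 5). The lineage markers Cd79a, Ncr1 and Ly6g, of B cells, NK cells and neutrophils, were at 0 in all 6 libraries, and the T cell gene Cd3e did not exceed 1.96 CPM; these 4 were picked after their values were seen. Over all genes tested, 51.5% had a positive fold change and 12.3% had all 3 A20 KO libraries above all 3 IFNa libraries. Of 9 B cell genes tested, 8 had a positive fold change and 4 lay wholly above. Their summed level was 110 to 118 CPM with IFNa and 157 to 189 in A20 KO. With edgeR 0 passed, 4 had an unadjusted p under 0.05, and DESeq2 called 1 and limma-voom 2; edgeR called 1 without any 1 untreated WT library. Of 11 basophil, mast cell and eosinophil genes, 10 were positive and 6 lay wholly above, with sums of 118 to 200 CPM and 222 to 238. With edgeR 0 passed, 3 had an unadjusted p under 0.05, and DESeq2 called 1 and limma-voom 0; edgeR called 1 without untreated WT library 1. Of 6 T and NK cell genes tested, 3 lay wholly above and 3 wholly below. The summed level of that list was 207 to 253 CPM with IFNa and 99.0 to 152 in A20 KO. With edgeR 1 was lower and 0 higher, and 4 had an unadjusted p under 0.05. DESeq2 called 2 higher and 1 lower, and limma-voom 0 higher and 1 lower. The part of such cells in the results was not tested. The dendritic cell markers Flt3, Itgax, Cd74 and H2-Aa were present in every library. Zbtb46, the transcription factor that marks conventional dendritic cells, was present too but lower in A20 KO, at 120, 121 and 118 CPM with IFNa against 65.6, 62.4 and 71.4 (log2 -0.85 ± 0.16, adjusted p = 0.00545), while untreated WT held 113, 114 and 125. In bulk RNA, fewer cells of a type and less RNA per cell cannot be told apart, and this holds for every result below.

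Tnfaip3 itself, the gene targeted, stood at 7.95, 9.73 and 11 CPM in the IFNa libraries and at 37.5, 54.0 and 39.7 in A20 KO, with 22.8, 6.82 and 4.27 in untreated WT. Every A20 KO library was thus above every other library, and the IFNa libraries overlapped untreated WT. Tags come from the 3' end and the deleted exons are not known here, so this level does not check the deletion. The log2 fold change, A20 KO minus IFNa, was 2.19 ± 0.52 (SE; edgeR quasi-likelihood test with Benjamini-Hochberg adjustment, adjusted p = 0.0257). The call ended without IFNa library 1, 2 or 3 (adjusted p = 0.114, 0.102 and 0.0641) or A20 KO library 2 or 3 (0.110 and 0.0633), and without A20 KO library 1 and IFNa library 3 together (0.109).

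At an adjusted p under 0.05, 271 genes were higher in A20 KO (2.05% of those tested) and 452 lower (3.41%), together 5.46%. These shares are the background for the list counts below. Of the increases, 33 exceeded 4 on the log2 scale and the median was 1.66. Of the decreases, 11 did so and the median was -1.18. Over all genes tested the median log2 fold change was 0.02. Genes on which the 3 A20 KO libraries lay wholly above the 3 IFNa libraries made up 12.3% of those tested, and those wholly below another 12.3%. The counts moved with single libraries. They were 173 higher and 227 lower without IFNa library 1, 167 and 273 without IFNa library 2, and 145 and 276 without A20 KO library 2. Without A20 KO library 3, 147 were higher. With library size as the only scaling, 370 were higher and 379 lower, so that 49.4% of calls were increases in place of 37.5%, and the median of all genes moved to 0.12.

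Untreated WT gives a further level for each gene. Of the 271 genes higher in A20 KO, the WT mean was below both other groups for 127, between them for 136 and above both for 8. Of the 452 lower genes, it was below both for 75, between for 176 and above both for 201. Among all genes tested these shares were 34.0%, 29.3% and 36.7%. The 75 genes are those with IFNa above A20 KO and A20 KO above WT, the order seen in the antiviral genes below.

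**Figure D1:**
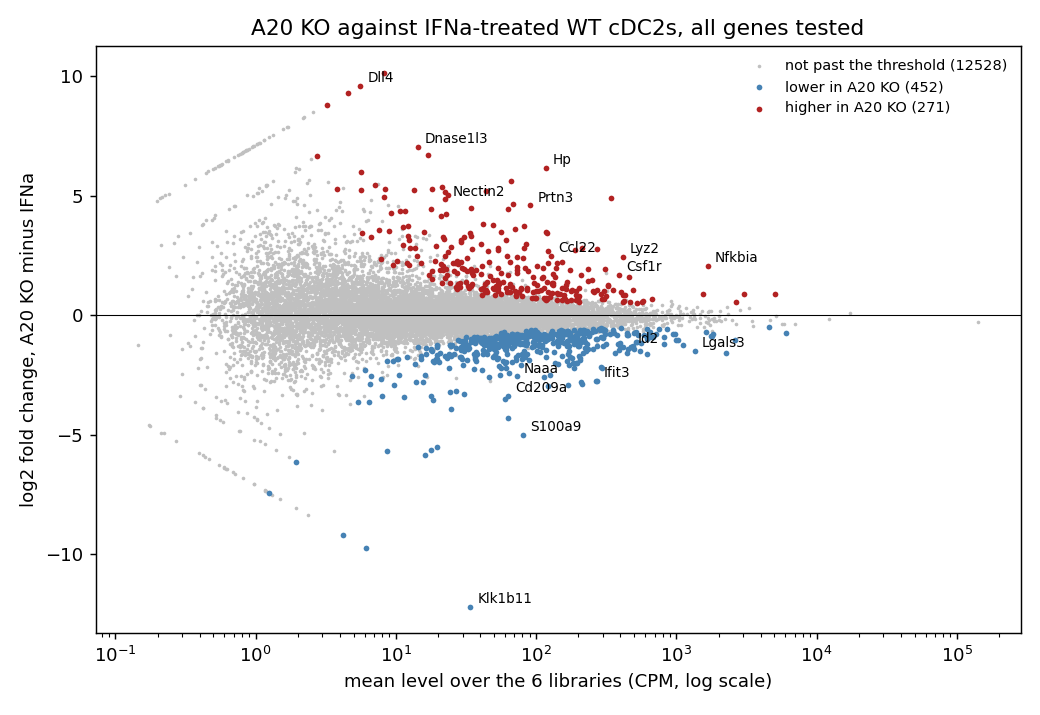
Each point is 1 of the 13251 genes tested, with its mean level over the 6 libraries (CPM, log axis) against its log2 fold change, A20 KO minus IFNa. Red marks the 271 genes higher and blue the 452 lower in A20 KO, with Hp (6.17) and S100a9 (-5.01) far from 0.

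The genes with the largest increases had very low levels in the IFNa group. Hp, which encodes haptoglobin, the plasma protein that binds free haemoglobin, stood at 3.05, 3.59 and 2.97 CPM with IFNa and 198, 249 and 248 in A20 KO (71.8-fold, log2 6.17 ± 0.32, adjusted p = 4.7e-07). Cp, encoding the copper carrier ceruloplasmin, went from 0.981, 4.64 and 2.23 CPM to 149, 132 and 110 (49.5-fold, log2 5.63 ± 0.51, adjusted p = 2.69e-05). Untreated WT was as low, with Hp at 2.69 CPM and Cp at 2.24 CPM on average. Dnase1l3, an enzyme that digests DNA in apoptotic debris, was at 0.436, 0 and 0.149 CPM with IFNa and at 27.9, 27.8 and 29.6 in A20 KO. Dll4, a Notch ligand, had no count in the IFNa group and 287 in A20 KO. Taken against 3 counts over the group, that is at least 90.5-fold higher, a bound that covers counting error only. The call on Dll4 ended without A20 KO library 1 and IFNa library 3 together (adjusted p = 0.0540), the pair richest in stromal RNA among the 6 libraries compared. Untreated WT library 2, with Col1a1 at 2750 CPM, stayed in that fit. The call on Dscam, a neuronal adhesion molecule at 0, 1.85 and 0.149 CPM with IFNa and 25.4, 19.5 and 34.2 in A20 KO, held with any 1 library left out and ended without that pair (0.0822).

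Further genes among the 12 largest increases that held with any 1 library left out, and without that pair, were Serpina3g (below), Pilra, an inhibitory myeloid receptor, Ackr1, a chemokine-binding receptor that does not signal, and Clec4e, the lectin Mincle. Clec4e was at 1.85, 0.927 and 4.31 CPM with IFNa and at 82.3, 95.8 and 80.4 in A20 KO.

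The largest decrease was that of Klk1b11, a tissue kallikrein protease. It stood at 84.0, 58.2 and 62.0 CPM with IFNa, where 1690 counts were found, and had no count in any A20 KO library. The bound against 3 counts is at least 595-fold lower. Untreated WT held 21.1, 17.8 and 40.1 CPM. Kallikrein genes are near-identical copies, and reads may have been split among them. S100a8 and S100a9 encode the paired calcium-binding proteins of calprotectin. S100a9 stood at 157, 139 and 176 CPM with IFNa and at 3.94, 4.09 and 6.53 in A20 KO (32.2-fold lower, log2 -5.01 ± 0.25, adjusted p = 4.7e-07). S100a8 showed the same separation, 115, 116 and 130 CPM against 3.68, 6.92 and 7.37. Untreated WT lay between, near 47.8 CPM for S100a9 in all 3 libraries. F2rl2, a protease-activated receptor, fell from 20, 15.6 and 15.0 CPM to 0.657, 0.113 and 0.211, and Gask1b, a Golgi protein, from 41.2, 34.2 and 26.2 to 1.97, 2.5 and 4.00.

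Genes of the NF-kB pathway were higher in A20 KO. Of 46 tested targets, 20 rose and none fell, with a median log2 fold change of 0.91 against 0.02 for all genes, and with 1 library left out 14 to 21 rose. Among 16 subunits and inhibitors, 4 rose (Nfkbia, Relb, Nfkb2 and Bcl3), none fell and 12 did not pass, with a median of 0.30. The study was built around A20, an inhibitor of this pathway, and these lists were drawn up knowing that.

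Nfkbia encodes IkB-alpha, the inhibitor that NF-kB induces to shut itself off. It stood at 657, 622 and 663 CPM with IFNa and at 2429, 2989 and 2673 in A20 KO (4.17-fold, log2 2.06 ± 0.12, adjusted p = 1.49e-06). Untreated WT held 376, 392 and 332 CPM. The lowest A20 KO library was far above the highest of the other 6. Relb, the subunit of the alternative pathway that matures with dendritic cells, rose from 103, 100 and 93.5 CPM to 316, 329 and 320 (log2 1.70 ± 0.23, adjusted p = 8.0e-04). Nfkb2, its partner, rose from 87.9, 65.4 and 94.8 to 146, 171 and 165. Bcl3, a nuclear IkB protein, rose from 73.3, 87.0 and 61.8 to 140, 208 and 217. Tnip1, which encodes the A20-binding protein ABIN1, rose from 65.9, 47.0 and 55.6 to 133, 194 and 176. Of the 20 A20 partners tested, 3 passed, Tnip1, Tnfaip3 and Birc2. The call on Birc2 (cIAP1, a ubiquitin ligase; log2 0.72, adjusted p = 0.0413) ended without any 1 of the 6 libraries. The count was 1 without IFNa library 2 or 3 or A20 KO library 2 or 3, and 1 partner was lower without untreated WT library 1 or 2 or IFNa library 3.

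Secreted and surface products of the pathway were among the genes that rose. Icam1, the adhesion molecule that binds T cell LFA-1, stood at 27.1, 23.3 and 27.2 CPM with IFNa and 127, 139 and 139 in A20 KO (log2 2.38 ± 0.27, adjusted p = 1.7e-04). Cxcl2, a neutrophil chemokine, was at 8.28, 10.5 and 9.21 CPM against 115, 100 and 96.7 (log2 3.47 ± 0.49, adjusted p = 9.3e-04). Ltb, the lymphotoxin beta chain, was at 7.52, 12.7 and 6.83 CPM against 32.3, 64.9 and 86.4. For these 3 genes the groups did not overlap. Cxcl16, a membrane-bound chemokine, rose by 1.59 ± 0.24 on the log2 scale. Traf1, a TNF receptor adaptor, rose by 1.90 ± 0.23, and Tnfrsf1b, TNF receptor 2, by 1.01 ± 0.17. Bcl2a1b, a survival gene of the BCL2 family, rose from 19.0, 15.8 and 23.9 CPM to 316, 173 and 159, though the Bcl2a1 copies are nearly identical and cannot be told apart with certainty here. In the wider death and survival list, 5 of 39 rose and none fell; 3 rose without IFNa library 2 or any 1 A20 KO library, 2 without both A20 KO library 1 and IFNa library 3, and 1 fell without untreated WT library 2.

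Promoters of 4 of these genes are shown because each holds a kB sequence close upstream of its start, here GGGNNTTTCC or its reverse complement GGAAANNCCC. They are RefSeq sequences of build GRCm38.p6, while the counts were made on GRCm39. Each line gives 60 bases of the gene's own strand, 5′ to 3′, with matches in capitals; the windows are chr12:55492648-55492707 (minus strand), chr5:90903796-90903855 (plus), chr10:19015411-19015470 (minus) and chr17:35194395-35194454 (plus).
Nfkbia: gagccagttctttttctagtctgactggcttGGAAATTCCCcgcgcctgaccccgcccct
Cxcl2: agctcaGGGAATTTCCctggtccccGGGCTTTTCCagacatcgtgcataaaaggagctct
Tnfaip3: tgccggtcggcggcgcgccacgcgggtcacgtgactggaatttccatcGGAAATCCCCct
Ltb: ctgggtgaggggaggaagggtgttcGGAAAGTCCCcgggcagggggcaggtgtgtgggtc
The Cxcl2 window carries 2 matches, 97 and 78 bases upstream of the start. In Nfkbia, Tnfaip3 and Ltb the match begins 29, 12 and 87 bases upstream. Searching 250 bases before to 50 after every start on both strands, the sequence was found in 1.63% of all 32851 promoters and in 2.14% of the 10172 tested genes with a promoter in the table. It was in 16 of the 220 such genes higher in A20 KO (7.27%) and in 10 of the 355 lower (2.82%). Of the 18 NF-kB targets that rose and had a promoter, 5 held it (27.8%), against 7 of 36 in the whole list, called or not (19.4%). A match describes the letters only and is not a binding site.

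Interferon-stimulated genes went the other way. Of 63 type I interferon-stimulated genes tested, 37 were lower in A20 KO and 1 higher, with a median log2 fold change of -1.24, and 59 had all 3 A20 KO libraries below all 3 IFNa libraries. With 1 library left out, 25 to 43 were lower, and 25 were without both A20 KO library 1 and IFNa library 3. The summed level of the list was 18835 to 21589 CPM with IFNa and 8825 to 10829 in A20 KO, against 3708 to 4484 in untreated WT. A20 KO thus held an intermediate level of antiviral transcripts in all 3 of its libraries.

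Ifit3, which helps block translation of viral RNA, stood at 474, 504 and 422 CPM with IFNa and 59.3, 72.9 and 76.0 in A20 KO, with 0.392, 2.54 and 1.83 in untreated WT (6.72-fold below IFNa, log2 -2.75 ± 0.30, adjusted p = 1.2e-04). Rsad2, the antiviral enzyme viperin, stood at 321, 294 and 310 CPM against 62.8, 70.6 and 65.0 (4.66-fold lower, log2 -2.22 ± 0.20, adjusted p = 2.9e-05). Irf7, the factor that amplifies interferon production, was at 469, 536 and 423 CPM against 103, 85.0 and 132 (4.46-fold lower, adjusted p = 6.9e-05). In each of these the 9 libraries fell into 3 separate steps, untreated WT lowest, A20 KO between and IFNa highest.

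Ifi44 (500, 486 and 434 CPM against 51.5, 65.6 and 94.7) and Ifit2 (234, 255 and 152 against 39.0, 38 and 35.3) showed the same order. The decreases were smaller for Ifitm3, which blocks viral entry, at 3691, 3538 and 3449 CPM against 1626, 1812 and 1727 (log2 -1.05 ± 0.11), and for Ly6a, which encodes Sca-1, at 1369, 1355 and 1262 against 542, 749 and 653 (log2 -1.04 ± 0.17). Stat2, a subunit of the transcription factor downstream of the receptor, fell by 1.49 ± 0.23. Isg15, the ubiquitin-like modifier, was at 389, 373 and 366 CPM against 144, 169 and 179, yet did not pass (log2 -1.20, 95% interval -2.38 to -0.02, adjusted p = 0.291). The 1 member higher in A20 KO was Apobec3, a cytidine deaminase that restricts retroviruses, at 179, 171 and 181 CPM against 342, 415 and 354 (log2 1.07 ± 0.16, adjusted p = 0.00133); it was picked out after its values were seen.

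Members of the related GBP and IRG families, GTPases that attack vacuoles of intracellular microbes and respond strongly to interferon gamma, were less uniform. Of 23 in that list, 2 fell and 1 rose, against 3.41% and 2.05% of all genes tested. The median was -0.39. Wholly below lay 10 and wholly above 5, each against 12.3% of all genes. Gbp5, a GTPase, lay wholly above, at 9.05 ± 2.61 CPM with IFNa and 37.8 ± 9.29 in A20 KO. It did not pass (log2 2.06, 95% interval 0.67 to 3.45, adjusted p = 0.0942). Iigp1 stood at 77.0, 107 and 52.7 CPM against 8.41, 15.1 and 15.5, and Ifi47 at 247, 263 and 245 against 96.7, 126 and 129. The member that rose was Serpina3g, a serine protease inhibitor and no GTPase, from 1.53, 0.116 and 1.04 CPM to 26.4, 42.1 and 38. Without untreated WT library 1 or 2, 3 rose, and without WT library 3, 4 fell.

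Receptor and signalling genes went up as well as down: 5 of 19 rose and Stat2 fell. Socs3, a feedback inhibitor of cytokine signalling, rose from 11, 16.7 and 15.2 CPM to 88.7, 87.5 and 105 (log2 2.71 ± 0.26, adjusted p = 3.9e-05). Jak2, a cytokine receptor kinase, rose from 134, 120 and 128 to 249, 303 and 290. The 3 other increases were each lost when some single library was left out: 2 genes rose without IFNa library 1 or A20 KO library 2 or 3, and 3 without IFNa library 2. Without untreated WT library 1, 2 or IFNa library 3, the count of lower members was 4, 3 and 2.

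The ISRE, searched as TTTCNNTTTC or its reverse complement GAAANNGAAA, is shown for 3 interferon-stimulated genes that were lower in A20 KO and hold it upstream of the start; Ifit3 has a further match outside the window. Build and layout are as above; the windows are chr19:34583382-34583441 (plus strand), chr12:26456538-26456597 (minus) and chr1:174031855-174031914 (minus).
Ifit3: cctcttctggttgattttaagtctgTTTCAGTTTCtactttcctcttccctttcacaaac
Rsad2: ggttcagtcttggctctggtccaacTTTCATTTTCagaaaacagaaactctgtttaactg
Ifi205: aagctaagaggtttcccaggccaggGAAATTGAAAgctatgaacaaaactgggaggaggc
These matches begin 122, 120 and 134 bases upstream. Ifi205, a member of the DNA-sensing PYHIN family, stood at 117, 123 and 92.6 CPM with IFNa and at 13.7, 7.26 and 8.53 in A20 KO, below its level in untreated WT (35.2, 23.3 and 23.1). The ISRE sequence was in 3.44% of all promoters and 3.97% of those of tested genes. It was in 36 of 355 genes lower in A20 KO (10.1%) and in 11 of 220 higher (5.00%). Of the 27 interferon-stimulated genes that were lower and had a promoter, 14 held it (51.9%). In the whole list, called or not, 23 of 46 held it, a similar share. Both sequences occurred in 12 tested genes, 2 of them with overlapping matches.

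**Figure D2:**
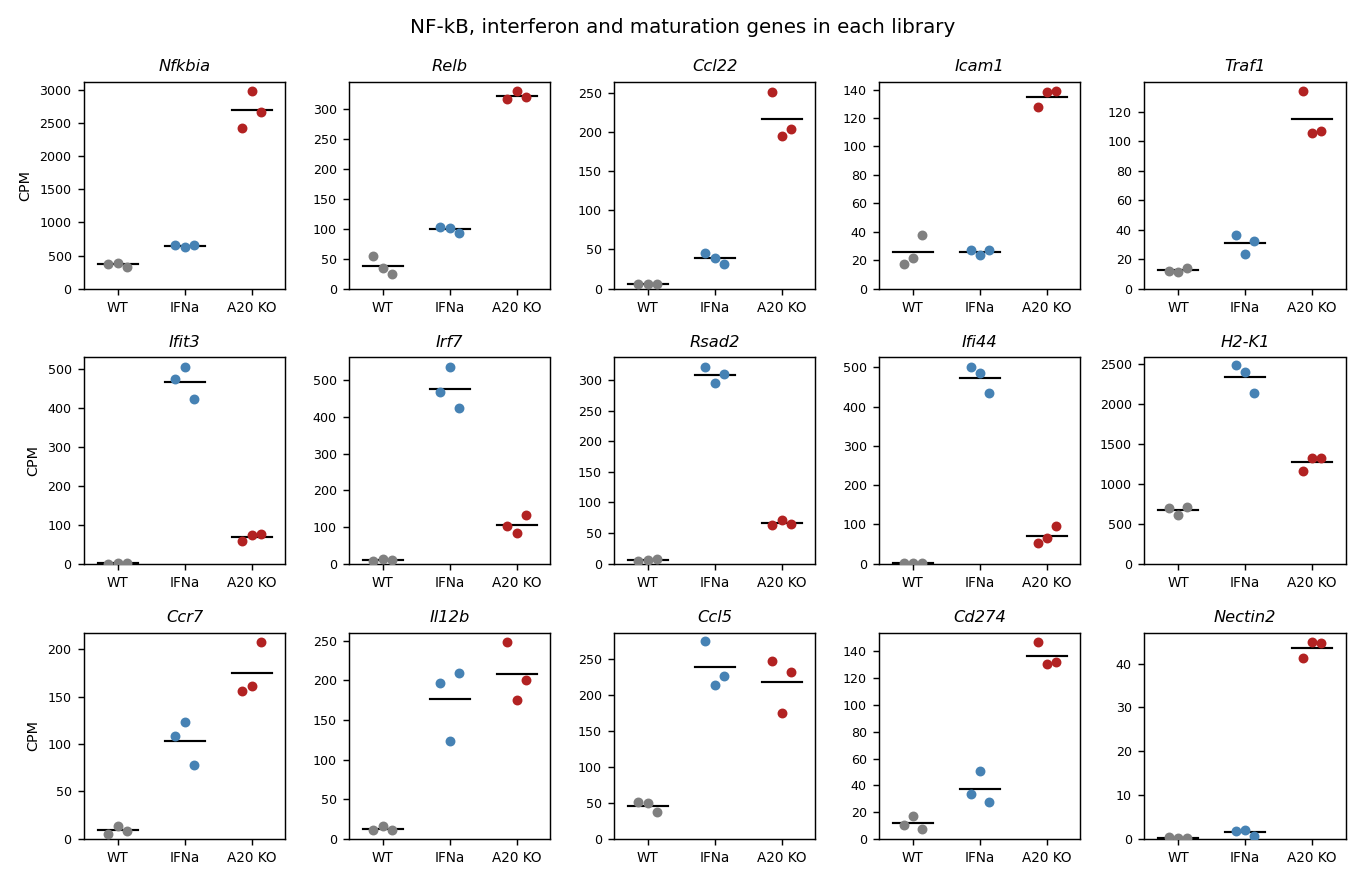
CPM of 15 NF-kB, interferon and maturation genes in each library (dots, 3 per group, with the group mean as a bar; every axis starts at 0). Nfkbia, Relb, Ccl22, Icam1, Traf1, Cd274 and Nectin2 are highest in A20 KO, Ifit3, Irf7, Rsad2, Ifi44 and H2-K1 are highest with IFNa, and Il12b and Ccl5 overlap between these groups.

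Genes of antigen presentation by MHC class I were lower in A20 KO for 4 of 21 genes tested and higher for none (median -0.38), with 3 to 6 lower when 1 library was left out. H2-K1, a classical heavy chain, stood at 2492, 2400 and 2142 CPM with IFNa and at 1158, 1329 and 1331 in A20 KO, with 700, 611 and 716 in untreated WT (log2 -0.88 ± 0.12, adjusted p = 6.3e-04). The nonclassical genes H2-T22 (199, 213 and 133 CPM against 34.2, 70.1 and 55.4) and H2-T24 (156, 113 and 109 against 18.1, 31.2 and 38.1) fell further, by 1.77 ± 0.26 and 2.11 ± 0.35. H2 genes resemble each other closely, so values of single members are uncertain. B2m, the light chain common to them, stood at 8609, 7942 and 7091 CPM against 5142, 6475 and 6594 and did not pass (log2 -0.38, 95% interval -0.62 to -0.13, adjusted p = 0.0782).

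MHC class II genes split. Of 20 tested, 4 fell and 4 rose. H2-Aa, the alpha chain of I-A, fell from 8589, 6546 and 7583 CPM to 4607, 4521 and 4535 (log2 -0.73 ± 0.12, adjusted p = 0.00263), while untreated WT stood at 13545, 10100 and 11954. The 2 beta chains of the peptide-loading chaperone H2-DM differed in direction, with the same uncertainty for single H2 genes as above. H2-DMb1 fell from 1320, 1030 and 1052 CPM to 457, 500 and 512, and H2-DMb2 rose from 73.5, 51.6 and 59.0 to 183, 191 and 238. Ifi30, the lysosomal thiol reductase that unfolds antigens, rose from 185, 195 and 201 to 466, 443 and 467. Ciita, the master regulator of class II genes, gave no call at -0.12 (95% interval -0.45 to 0.22; adjusted p = 0.841). Cd74, the invariant chain, did not pass either, at -0.48 (-0.78 to -0.18; adjusted p = 0.0675). The lower count was 2 without IFNa library 1 or 2, or without A20 KO library 1 or 2, and without both A20 KO library 1 and IFNa library 3 2 rose and 2 fell.

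Genes of mature, migratory dendritic cells, the state in which cells leave tissue for the lymph node to meet T cells, were higher in A20 KO for 14 of 45 tested and lower for none (median 1.2). Of the list's 48 genes, 23 stand in other lists too, NF-kB targets among them. With 1 library left out 10 to 17 rose, and 7 did without A20 KO library 1 and IFNa library 3 together. The summed level was 2612 to 2702 CPM with IFNa and 4915 to 5610 in A20 KO, against 1163 to 1389 in untreated WT.

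Ccl22, the chemokine that attracts regulatory T cells, stood at 45.4, 39.3 and 31.9 CPM with IFNa and at 252, 196 and 204 in A20 KO (5.58-fold, log2 2.48 ± 0.20, adjusted p = 1.1e-05). Tbc1d4, a regulator of membrane traffic, rose 6.92-fold, from 61.8, 47.3 and 52.3 CPM to 338, 348 and 431. Marcksl1, an actin-binding protein, rose from 46.2, 52.3 and 38 to 140, 199 and 198. Nectin2, a ligand of T and NK cell receptors, was at 1.85, 1.97 and 0.594 CPM with IFNa and at 41.3, 44.8 and 44.7 in A20 KO (28.9-fold, log2 4.85 ± 0.54, adjusted p = 1.3e-04). Cd274, the checkpoint ligand PD-L1, rose from 33.7, 51.0 and 27.8 to 147, 130 and 132 (log2 1.86 ± 0.31, adjusted p = 0.00271). Each of these genes kept its call with any 1 library left out.

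Other genes of the same state were not told apart. Il12b, the shared chain of interleukins 12 and 23, stood at 197, 123 and 209 CPM with IFNa and at 248, 175 and 201 in A20 KO, while untreated WT held 11.7, 16.1 and 11. Its log2 difference was 0.24, with a 95% interval of -0.25 to 0.73 (adjusted p = 0.745). Ccl5, a T cell chemokine, differed by -0.13 (-0.54 to 0.28; adjusted p = 0.870). Cd83, a maturation antigen picked after its values were seen, differed by -0.17 (-0.71 to 0.37; adjusted p = 0.864). Cd86, a co-stimulatory ligand, differed by 0.56 (-0.21 to 1.34; adjusted p = 0.517). For Il12b and Ccl5 the groups overlapped, and both intervals leave out a change of 1 in either direction.

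Ccr7, the receptor that guides migration to lymph nodes, had all A20 KO libraries (156, 162 and 208 CPM) above the IFNa libraries (109, 123 and 78.5) but did not pass (log2 0.76, 95% interval 0.17 to 1.35, adjusted p = 0.157). Cd40, the receptor for T cell help, likewise separated, at 28.5, 23.6 and 32.8 CPM against 91.7, 95.4 and 101, without passing (log2 1.76, 0.46 to 3.07; adjusted p = 0.130). Untreated WT libraries for Cd40 ranged from 0.490 to 12.7 CPM and enter the shared estimate of the spread.

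**Figure D3:**
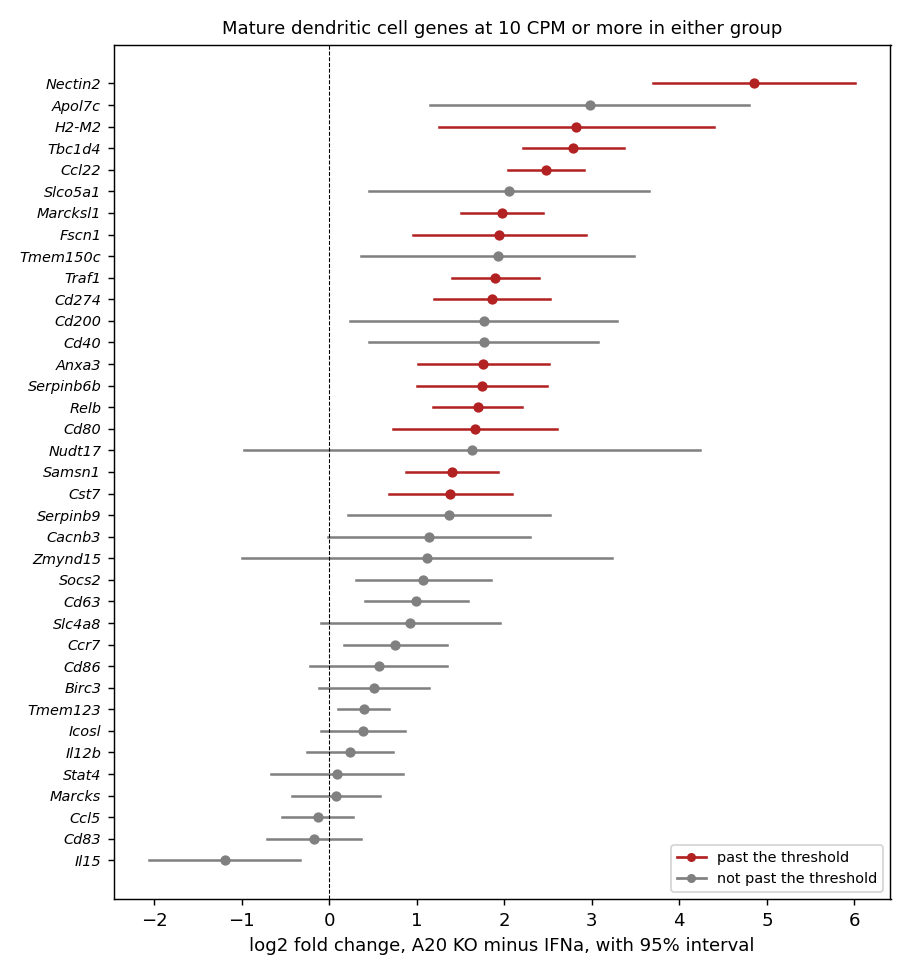
Log2 fold change, A20 KO minus IFNa, with its 95% interval for the 37 mature dendritic cell genes that reach 10 CPM in either group. The 14 genes in red passed the threshold; Nectin2 lies farthest from 0 (4.85), and the intervals of Il12b, Ccl5 and Cd83 include 0.

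The sorted cells were checked against the markers of their subset. Sirpa, the receptor that defines cDC2s, stood at 195, 200 and 198 CPM with IFNa and at 476, 418 and 473 in A20 KO (log2 1.21 ± 0.17, adjusted p = 8.3e-04). Itgam, encoding CD11b, was present in every library and did not pass (201 ± 19.1 CPM against 130 ± 9.10, log2 -0.62, 95% interval -1.05 to -0.19, adjusted p = 0.101). Of the cDC2 list, 10 of 39 genes were higher and 10 lower. Of the list's 41 genes, 29 stand in other lists too.

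The members that fell included lectins and regulators of the subset. Cd209a, an antigen-uptake lectin related to DC-SIGN, stood at 111, 135 and 96.4 CPM with IFNa and at 6.31, 11.8 and 14.9 in A20 KO (10.3-fold lower, log2 -3.37 ± 0.29, adjusted p = 1.8e-05), while untreated WT held 356, 259 and 379. Clec10a, a lectin for galactose-type sugars, stood at 522, 409 and 522 CPM against 95.4, 111 and 104 (4.68-fold lower, adjusted p = 2.1e-05), and the IFNa libraries overlapped untreated WT (580, 368 and 599). Klf4, a transcription factor that cDC2s need, fell from 683, 476 and 526 CPM to 220, 222 and 239 (log2 -1.31 ± 0.16, adjusted p = 2.9e-04). Notch2, the receptor behind a splenic cDC2 branch, fell from 293, 338 and 252 to 119, 124 and 167, and Ccr2, the monocyte chemokine receptor, from 1309, 959 and 927 to 464, 639 and 598. Irf4 stood at 155, 145 and 101 CPM against 45.7, 75.1 and 55.1 (log2 -1.19 ± 0.25, adjusted p = 0.0122). Its call ended without IFNa library 1 or 2 (adjusted p = 0.0631 and 0.0531) or A20 KO library 3 (0.0594).

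The members that rose included genes that monocytes also express. Csf1r, the M-CSF receptor, stood at 194, 183 and 180 CPM with IFNa and at 639, 572 and 571 in A20 KO (3.20-fold, log2 1.68 ± 0.13, adjusted p = 1.1e-05). Lyz2, lysozyme, stood at 132, 146 and 111 CPM against 785, 608 and 704 (5.40-fold, log2 2.43 ± 0.17, adjusted p = 3.5e-06), with untreated WT between at 414, 317 and 361. Tmem176a, an endolysosomal ion channel of dendritic cells, rose from 85.0, 115 and 93.5 CPM to 336, 407 and 380. Ffar2, a receptor for short-chain fatty acids, rose from 15.5, 24 and 16.8 to 123, 150 and 175 (log2 2.99 ± 0.29).

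C-type lectins, receptors for sugars of microbes and dying cells, moved both ways: 7 of 24 rose and 5 fell. Those that rose included Clec4n, the fungal receptor Dectin-2, from 21.1, 26.7 and 11.6 CPM to 183, 232 and 240 (log2 3.46 ± 0.30, adjusted p = 2.1e-05), Clec4e (above) and Clec4a1, from 89.1, 86.8 and 97.9 to 213, 247 and 264. Without IFNa library 2 or A20 KO library 2, 4 rose. Those that fell included Cd209a and Clec10a (above) and Clec9a (below). Cd209d did not pass (log2 -1.37, 95% interval -2.62 to -0.11, adjusted p = 0.247). Cd209e had no count in either group, against 21.0, 16.1 and 27.1 CPM in untreated WT. Cd209 genes are close copies and single values are uncertain.

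Of 31 cDC1 genes tested, 10 were lower in A20 KO and none higher (median -0.63), and 7 to 11 were lower with 1 library left out. 1 gene was higher without any 1 untreated WT library or IFNa library 3. The summed level was 3043 to 3451 CPM with IFNa and 1673 to 1962 in A20 KO. Naaa, a lysosomal lipid hydrolase, stood at 123, 114 and 137 CPM against 19.5, 20.7 and 23 (5.92-fold lower, log2 -2.56 ± 0.18, adjusted p = 3.5e-06). Rab7b, a GTPase of endosomal traffic, stood at 248, 227 and 223 CPM against 54.4, 60.1 and 52.6. Clec9a, the receptor for actin of dead cells, was at 23, 22.6 and 16.8 CPM with IFNa and at 2.89, 1.93 and 1.05 in A20 KO (log2 -3.41 ± 0.47, adjusted p = 7.6e-04). Id2, a repressor of other lineage programmes, fell from 719, 748 and 568 CPM to 245, 284 and 276 (log2 -1.34 ± 0.14, adjusted p = 8.8e-05).

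The 2 regulators most tied to cDC1s did not pass. Irf8 stood at 918, 732 and 742 CPM with IFNa, at 429, 630 and 618 in A20 KO and at 918, 735 and 767 in untreated WT. The A20 KO libraries lay below all others, but the log2 difference of -0.51 (95% interval -0.88 to -0.15) had an adjusted p of 0.110. Batf3 differed by 0.07 (-0.91 to 1.04; adjusted p = 0.984), and its sign turned with single libraries left out. Xcr1, the defining cDC1 chemokine receptor, was at 7.30, 11.6 and 5.79 CPM against 0, 0.454 and 3.16 (log2 -2.74, -5.03 to -0.45; adjusted p = 0.193). In the wider list of dendritic cell transcription factors, 9 of 48 fell and 2 rose. Irf5, which drives inflammatory cytokines, fell from 356, 301 and 315 CPM to 121, 157 and 143. Zeb2, a transcriptional repressor, differed by -0.26 (-0.64 to 0.13, adjusted p = 0.574). The count of factors that rose was 5 and 4 without untreated WT library 1 and 2, and 1 without IFNa library 2 or A20 KO library 2 or 3.

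**Figure D4:**
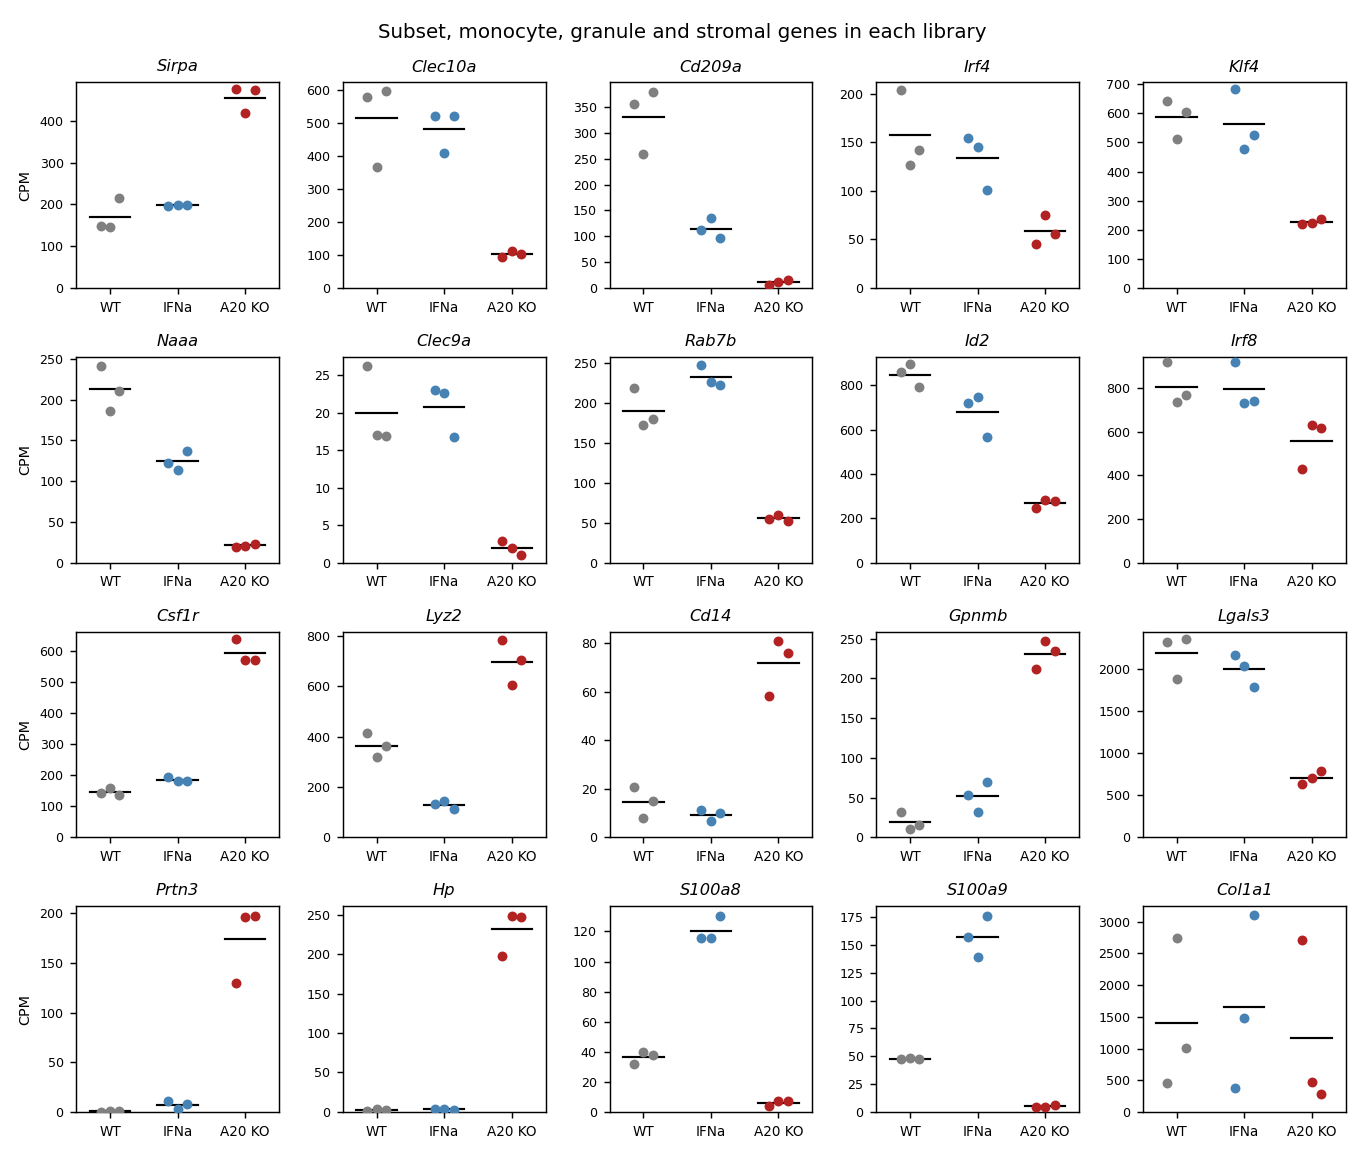
CPM of 20 subset, monocyte, granule and stromal genes in each library (dots, 3 per group, with the group mean as a bar; every axis starts at 0). Clec10a, Klf4, Rab7b and Id2 are lower in A20 KO than in the other 6 libraries, Csf1r, Hp and Prtn3 are higher in A20 KO than in the other 6, and Col1a1 varies within every group.

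Monocyte and macrophage genes were measured as markers of other cells the gate could hold. Of 38 tested, 8 rose and 3 fell (median 1.06). A positive fold change was found for 28, 18 lay wholly above and 4 wholly below. The summed level overlapped, 5923 to 6172 CPM with IFNa and 5840 to 6441 in A20 KO. That sum includes Lgals3, an abundant member that fell (below). Without both A20 KO library 1 and IFNa library 3, 5 rose and 2 fell. Cd14, the lipopolysaccharide co-receptor, stood at 11.1, 6.61 and 9.81 CPM against 58.2, 81.0 and 75.8 (log2 2.96 ± 0.37, adjusted p = 3.3e-04). Gpnmb, a lysosomal glycoprotein, stood at 53.6, 32.0 and 69.4 CPM against 212, 247 and 235. Adgre4, an adhesion receptor, rose by 3.28 ± 0.50. Lgals3, the galectin of macrophages, went the other way, from 2164, 2033 and 1781 CPM to 633, 706 and 785 (2.81-fold lower, adjusted p = 2.6e-05).

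Ly6c2, the surface antigen of classical monocytes, did not separate the groups, at 685, 779 and 573 CPM against 670, 874 and 679 (log2 0.13, 95% interval -0.39 to 0.64, adjusted p = 0.911), and stood at 16.4 to 37.5 CPM in untreated WT. Apoe differed by 0.06 (-0.36 to 0.49; adjusted p = 0.954). Fcgr1, a monocyte Fc receptor, did not pass (log2 -1.66, -2.80 to -0.52; adjusted p = 0.0988). Mertk, the receptor for apoptotic cells, rose from 4.47, 2.32 and 2.67 CPM to 23.5, 18.3 and 25 (log2 2.81 ± 0.55, adjusted p = 0.00849), a call that ended without A20 KO library 3 (adjusted p = 0.0592) or without A20 KO library 1 and IFNa library 3 (0.130). The part of monocytes or macrophages in the genes above was not tested. Cd74, Ciita and Ly6c2 were named after their values were seen, as were Ltf, Mpo, Zbtb46 and the markers Col1a1, Flt3 and Itgax.

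Of 18 granulocyte genes, 4 rose and 3 fell, and their summed level was 361 to 424 CPM with IFNa and 535 to 722 in A20 KO. Mpo, myeloperoxidase, stood at 4.25, 0.579 and 4.01 CPM against 59.4, 72.7 and 64.1 (log2 4.47 ± 1.10, adjusted p = 0.0307). Its groups were far apart, but the call ended without IFNa library 1, 2 or 3 (0.0932, 0.129 and 0.0755), A20 KO library 1, 2 or 3 (0.0515, 0.0981 and 0.0808), or A20 KO library 1 and IFNa library 3 together (0.137). Prtn3, proteinase 3 of the primary granules, stood at 10.7, 3.36 and 7.58 CPM against 129, 197 and 197 (24.1-fold, log2 4.59 ± 0.50, adjusted p = 1.2e-04), and Mmp8, neutrophil collagenase, at 5.23, 4.87 and 6.39 against 64.7, 72.4 and 96.3. S100a8 and S100a9 (above) fell, and so did Ngp, a secondary granule protein, from 27.0, 43.3 and 35.4 CPM to 0, 0 and 2.00. The call on Ngp ended without A20 KO library 1 and IFNa library 3 together (adjusted p = 0.0551). The neutrophil antigen Ly6g was at 0 throughout, and the secondary granule gene Ltf stayed at 6.72 CPM or less in these 6 libraries.

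Among 18 progenitor genes, 5 rose and 2 fell (median 1.75). A positive fold change was found for 14, 9 lay wholly above and 2 wholly below. The summed levels overlapped (1764 to 1954 CPM and 1426 to 1812). These sums include Ly6a, at 1369, 1355 and 1262 CPM with IFNa and 542, 749 and 653 in A20 KO. The increases numbered 3 without both A20 KO library 1 and IFNa library 3. Cdk6, a cell cycle kinase, rose from 47.5, 68 and 49.2 CPM to 209, 293 and 259 (log2 2.21 ± 0.20, adjusted p = 3.1e-05). Sox4, a transcription factor of early cells, rose from 47.8, 36.6 and 46.4 to 190, 226 and 178. Kit, the stem cell factor receptor, rose from 23, 14.9 and 30.2 to 62.2, 85.7 and 65.0. Of the 2 that fell, Ly6a was among the interferon genes above; 1 fell without IFNa library 1 or 2 or A20 KO library 2 or 3. Of 42 proliferation genes, 2 passed upward and 1 downward, against 2.05% and 3.41% of all genes tested. A positive fold change was found for 39, against 51.5% of all genes, and 21 lay wholly above, against 12.3%. The upward count was 0 without untreated WT library 3, IFNa library 1 or 2, or A20 KO library 2 or 3, and 5 and 6 without untreated WT library 1 and 2.

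Plasmacytoid genes gave 2 increases and 4 decreases among 22, with overlapping sums (1537 to 1728 CPM and 1413 to 1774). Siglech, the defining surface lectin, fell from 180, 170 and 127 CPM to 52.3, 78.3 and 58.3, while Ly6d, a marker of early lymphoid-type precursors, rose from 12.3, 14.1 and 10.4 to 62.3, 138 and 127. The decreases numbered 2 without IFNa library 1 or 3 or A20 KO library 2 or 3.

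Of 17 genes of eicosanoid synthesis, which makes lipid mediators, 6 fell and 1 rose (median 0.38), and 5 or 6 fell with any 1 library left out. Alox5, the 5-lipoxygenase that begins leukotriene synthesis, stood at 54.1, 27.9 and 49.2 CPM with IFNa and at 4.47, 7.38 and 2.11 in A20 KO (9.41-fold lower, log2 -3.23 ± 0.39, adjusted p = 2.6e-04), and at 123, 119 and 123 in untreated WT. Its activating protein Alox5ap fell from 831, 779 and 736 CPM to 301, 336 and 398. Of the prostanoid enzymes, Hpgds, which makes prostaglandin D, fell from 307, 222 and 256 to 63.2, 61.3 and 81.7, Tbxas1, thromboxane synthase, from 68.1, 52.5 and 57.8 to 14.5, 10.3 and 13.1, and Hpgd, which inactivates prostaglandins, from 91.4, 102 and 82.6 to 15.4, 22.5 and 21.4. Of the 17 genes, 9 had a positive fold change, 5 lay wholly above and 6 wholly below. The 1 that passed upward was Pla2g7, the hydrolase that degrades platelet-activating factor. It rose from 4.25, 6.61 and 4.61 CPM to 101, 149 and 146 (25.4-fold, log2 4.67 ± 0.60, adjusted p = 4.4e-04).

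Immediate-early genes, the fast targets of MAPK signals that also react to tissue handling, were lower for 8 of 32 and higher for 2. Atf3, a stress-induced repressor, stood at 373, 233 and 315 CPM against 81.0, 71.9 and 76.0 (log2 -2.01 ± 0.35, adjusted p = 0.00406). Ier2 stood at 117, 112 and 103 against 41.4, 48.2 and 57.6, and Ier5 at 886, 745 and 932 against 465, 441 and 447. Without A20 KO library 2, or without both A20 KO library 1 and IFNa library 3, 5 were lower. The increases numbered 1 without IFNa library 1 or 2 or A20 KO library 2 or 3, and 0 without IFNa library 3. The part of handling before lysis was not tested.

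Of 21 chemokine and chemoattractant receptors, 6 fell and 1 rose. The increase was in Fpr2, a formyl peptide receptor, from 5.23, 8.11 and 3.42 CPM to 114, 128 and 122 (21.5-fold, log2 4.43 ± 0.33, adjusted p = 6.9e-06), against at most 0.268 CPM in untreated WT. Ccr1, an inflammatory chemokine receptor, fell from 115, 127 and 96.6 to 19.3, 30.3 and 41.8. The decreases numbered 2 without IFNa library 1 or A20 KO library 1 and 3 without untreated WT library 3 or IFNa library 2 or 3; 3 rose without untreated WT library 2.

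Of 30 integrin and adhesion genes, 3 fell and 2 rose, against 3.41% and 2.05% of all genes tested. Itgb7, the gut-homing integrin chain, stood at 706, 680 and 623 CPM against 210, 232 and 217 (log2 -1.61 ± 0.14, adjusted p = 1.9e-05). Selplg, the selectin ligand PSGL-1, fell from 826, 706 and 564 to 229, 302 and 326, and Jaml, a junctional adhesion molecule, from 369, 329 and 385 to 147, 203 and 197. Cdh1, E-cadherin, rose from 17.2, 26.1 and 32.8 to 107, 69.1 and 83.3. Without untreated WT library 2, 5 fell. Csf2rb, the shared beta chain of GM-CSF receptors, rose from 321, 312 and 320 to 565, 700 and 731, and Crlf2, the receptor for TSLP, fell from 224, 196 and 154 to 86.0, 88.3 and 91.1.

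**Figure D5:**
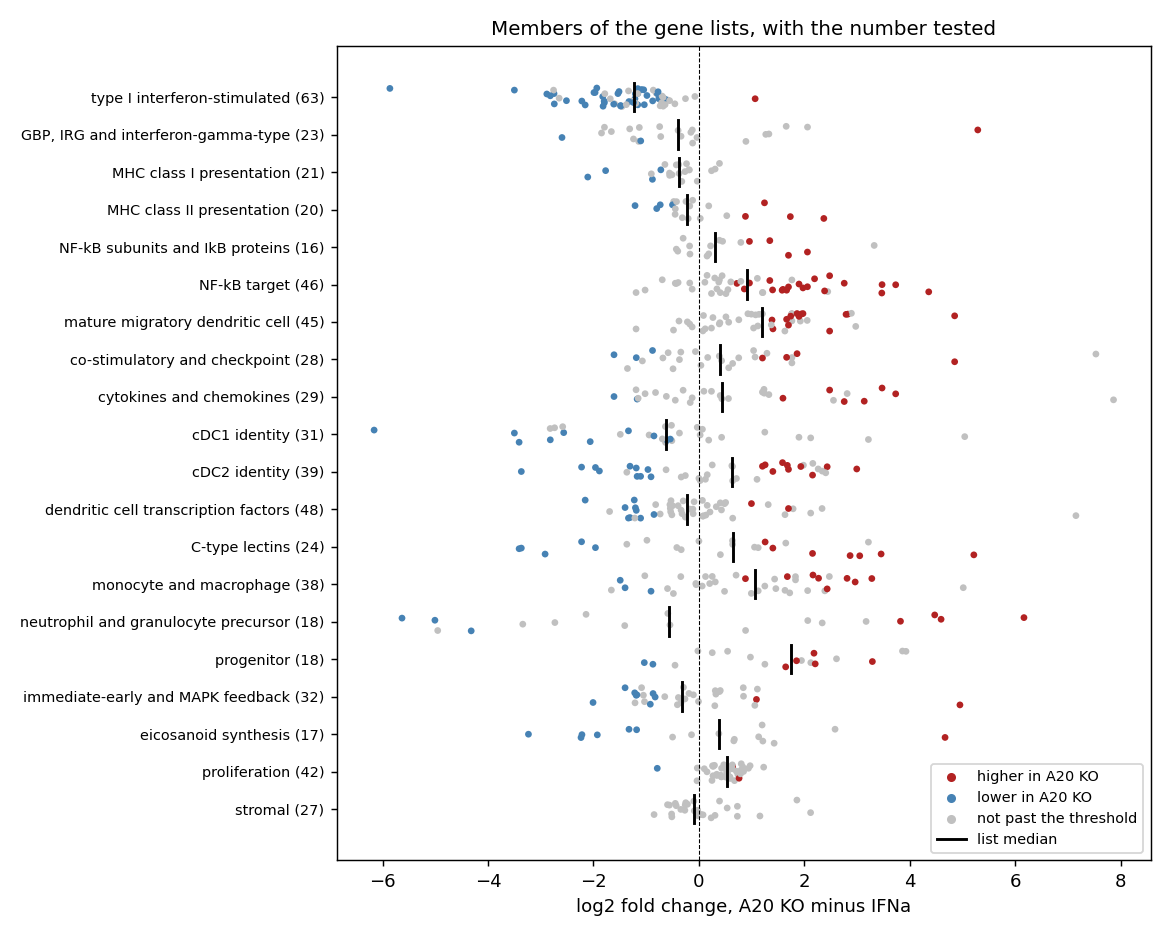
Log2 fold change, A20 KO minus IFNa, for each tested member of 20 gene lists, with the number tested in brackets and the list median as a black bar. Interferon-stimulated genes lie to the left (37 of 63 in blue), NF-kB targets and mature dendritic cell genes lie mainly to the right (20 of 46 and 14 of 45 in red), and stromal genes (27) hold no call.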

How the data were processed

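The deposited values are whole-number read counts per gene symbol, 1 column per library. The submitters' processing notes name featureCounts 2.0.6, STAR 2.7.10b, fastp 0.23.1 and Bowtie2, and build GRCm39. The sources used here do not give tool roles, annotation, strand or the treatment of multi-mapping reads, so overlapping, antisense and near-identical genes are uncertain. Libraries were made with a 3' tag kit.

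CPM were computed here with TMM factors. edgeR's quasi-likelihood test (edgeR 4.0.16, R 4.3.3) was fitted to all 9 libraries (6 residual degrees of freedom, common biological coefficient of variation 0.554) after filterByExpr (minimum count 10, minimum total 15, 99.8% of counts kept), contrast A20 KO minus IFNa, with Benjamini-Hochberg adjustment over 13251 genes and a threshold of 0.05. The script was tested on simulated data. Alternatives used DESeq2 1.42.0, limma 3.58.1, other scalings, filters and omissions.

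Members and the 39 gene lists were chosen with earlier results of these data known. Lists share genes, so their counts are not independent. Also in other lists are 43 of 48 NF-kB targets, 24 of 40 monocyte and macrophage genes and 17 of 39 cDC1 genes. Named are the 12 largest increases and decreases at 10 CPM or more without overlap, up to 6 members of each list by p, and preset genes; others are said to be picked afterwards. Libraries within a group differed beyond sampling noise (chi-square per degree of freedom 14.4 in the closest pair). The noncoding Gm26917 took 12.2% to 17.3% of counts with IFNa and 12.3% to 13.8% in A20 KO, and mitochondrial genes 2.66% to 2.99% and 3.56% to 3.65%.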

Additional observations from a re-analysis of the deposited data

How the results depend on the processing

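The counts of 271 genes higher and 452 lower in A20 KO depended on the settings, and no gene called in the comparison was called in the opposite direction under any of them. More genes were higher without a filter on low counts (430), with DESeq2 (497) and with the 6 libraries alone (469). With the stromal level as a covariate, 476 were higher and 751 lower. Without A20 KO library 1 and IFNa library 3, the pair richest in stromal RNA among the 6 libraries compared (an alternative chosen after seeing the data), 152 were higher and 258 lower. With 1 library left out, 145 to 352 were higher and 227 to 523 lower; the cause was not tested. Of 167 named genes that passed, 119 did so under all 21 alternatives, 48 were lost in at least 1 and none turned direction. Of 43 named genes that did not pass, 28 passed under at least 1 alternative and 15 under none. Those 28 include Isg15 (4 of 21 alternatives), Irf8 (3), Cd40 (5), Itgam (5), B2m (4) and Cd74 (6). Of the 43, 4 changed sign. With 1 library left out, Batf3 ran from -0.22 to 0.40, Ccl5 from -0.23 to 0.0228, Apoe from -0.0241 to 0.22 and Ly6c2 from -0.0139 to 0.23 on the log2 scale. Same-numbered A20 KO and IFNa libraries did not deviate together (correlations -0.37, -0.03 and -0.26). The stromal-rich A20 KO library 1 and IFNa library 3 gave 0.36. With 3 libraries a group and uneven stromal RNA, such values cannot settle whether a number marks a shared mouse or day. With the number as a replicate block, 200 genes were higher and 335 lower. Unadjusted, 2196 genes had p under 0.05. Genes at a few CPM rest on few counts, which limits their precision.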

Other observations

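The following groups were picked after their values were seen and carry no test as groups. Complement and acute-phase genes, which the liver makes in inflammation and myeloid cells make locally, were higher in A20 KO for 7 of 13 tested and lower for none, Hp and Cp among them. C3, the central complement protein, stood at 10.0, 14.1 and 8.17 CPM with IFNa and at 150, 127 and 112 in A20 KO (12-fold, log2 3.58 ± 0.27, adjusted p = 7.0e-06), and Saa3, serum amyloid A3, at 4.58, 36.8 and 25.3 against 740, 684 and 568 (29.9-fold, adjusted p = 0.00132). The Saa3 libraries with IFNa spread from 4.58 to 36.8 and lay below the lowest A20 KO library. PYHIN genes, sensors of DNA, were lower for 9 of 12 and higher for none: Ifi213 stood at 396, 435 and 293 CPM against 35.4, 44.5 and 72.1, and Mndal at 1573, 1149 and 1390 against 659, 673 and 682. Inhibitory and activating receptors of the Cd300 family fell for 4 of 7, Cd300lg from 88.6, 57.5 and 59.0 to 20, 14.2 and 8.22. Cd33, a sialic acid-binding receptor, fell from 101, 94.8 and 88.4 to 17.5, 19.7 and 12.4 (log2 -2.52 ± 0.24, adjusted p = 3.4e-05).

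D-type cyclins, which start the cell cycle, fell for 2 of 3: Ccnd2 stood at 1043, 952 and 782 CPM with IFNa, at 255, 325 and 322 in A20 KO and at 241, 182 and 214 in untreated WT. Transcripts of the mitochondrial genome rose for 4 of 9 and fell for none. CYTB, cytochrome b, stood at 2081, 2005 and 2364 CPM against 4265, 3675 and 3956, with 3332, 3225 and 3858 in untreated WT, so that the IFNa group was the low one. ND1, a subunit of complex I, was also lowest with IFNa. Of the 12 S100 genes tested, 3 fell, S100a10 (381, 414 and 365 CPM against 156, 138 and 173) with the calprotectin pair, and 9 did not pass.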
